A study of Mus musculus with 6 samples.

Results

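The collagen superfamily was described in RNA from the bone that lies under the cartilage of the mandibular condyle, the part of the mouse lower jaw that moves in the temporomandibular joint. Members were all protein-coding genes whose symbol has the form of a collagen chain (Col, a type number, the letter a and a chain number). This rule found 41 of the 23170 genes in the authors' deposited table, which holds 15397 protein-coding genes. They comprised 11 fibrillar, 8 fibril-associated, 3 network-forming and 8 basement membrane chains, with 11 others. The further symbols Col6a4, Col19a1, Col21a1 and Col26a1 were not analysed here. The rule reads gene symbols only.

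All 6 libraries came from wild type mice with the age label P6w+PO2w, whose prefixes the labels do not spell out. In 3 libraries the joint had received a sham operation, and in 3 a partial discectomy, in which part of the joint disc is cut away. Surgery was on 1 side, and the sequenced bone was from the side that had been operated. The labels do not say whether each library is a different mouse. Each sample description also carries a number, and the libraries titled Sham 3 and PD 3 share the number 6. The remaining libraries each have a number of their own. Whether a shared number marks the same mouse or a matched pair is not stated. Nor do the labels explain the endings Rctrl (sham) and LPD (partial discectomy) of these descriptions. Anything else these letters mark therefore cannot be told apart from the surgery.

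Collagens are secreted proteins built from 3 chains wound into a triple helix, with glycine at regular places along each chain. Fibrillar collagens form the cables that carry tension: collagen I in bone, collagens I and III in fibrous tissue, and collagen II with collagen XI in cartilage. Fibril-associated collagens sit on those cables, collagen X marks hypertrophic cartilage, collagen IV forms the mesh of basement membranes, and collagen VI forms beaded filaments around cells.

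Values per library were not analysed here. The authors' deposited table gives, for each gene, the mean of each group of 3, the highest of the 6 library values and the geometric mean of all 6. The unit of these values is not named and depth is unknown. The smallest group mean is 1, called the floor below and read as an offset added to each value. Each ratio divides the partial discectomy mean by that of sham, with the floor included unless stated. It comes with the 95% limits and the p of a model that is not named, and a gene was called at an adjusted p under 0.05 over all genes. In bulk tissue, fewer cells of a type and less RNA per cell cannot be told apart. Of the 41 collagens, 30 had a mean of at least 5 above the floor, 5 lay between 1 and 5 and 6 under 1.

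No collagen passed the threshold in either direction. The number called was 0 of 41, where 2.38% of all genes and 3.11% of protein-coding genes were called. Over all genes 2.28% were called higher and 0.104% lower. By the authors' deposited table the smallest adjusted p of a collagen was 0.211. At an unadjusted p under 0.05 there was 1 collagen, Col4a5, which was higher, where 14.2% of all genes passed (10.9% higher and 3.31% lower). By the deposited 95% limits 1 collagen lay above equal means, Col4a5, and 2 lay below, Col14a1 and Col6a6, against 14.7% of all genes beyond equal means (11.1% above and 3.59% below). Collagens with a ratio above 1 numbered 20 of 41, while 62.7% of all genes and 67.5% of protein-coding genes had one. The median log2 ratio was -0.01 over the collagens and 0.08 over all genes. A p that misses the threshold does not show equal levels, and the limits of the collagen I chains span several-fold changes both ways.

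**Figure D1:**
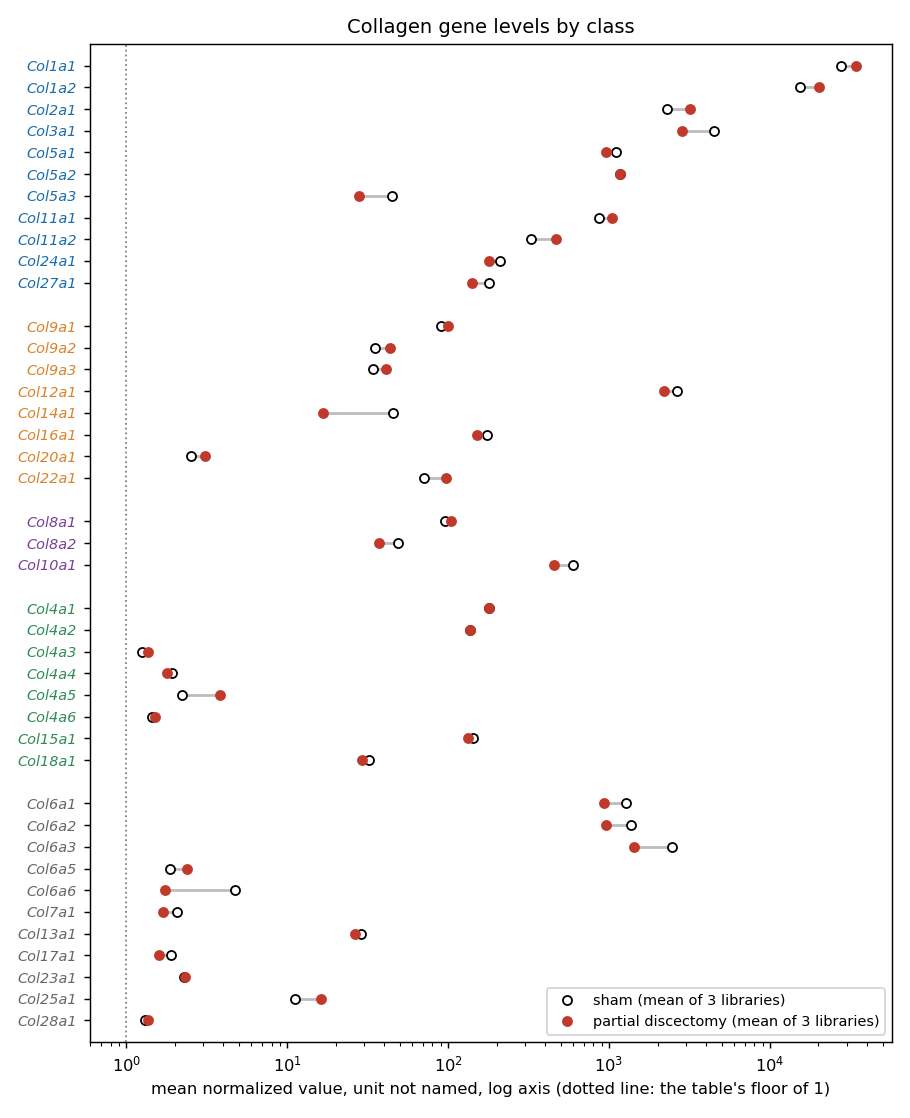
Mean normalized value of each of the 41 collagen genes in sham (open) and partial discectomy (red), each a mean of 3 libraries, on a log axis and coloured by class on the vertical axis. Levels run from close to the floor of 1 (Col28a1, Col4a3) to 34180 for Col1a1 in partial discectomy. On so long a log axis most pairs of points look close, even where means differ as those of Col6a3 do (1426 in partial discectomy, 2444 in sham).

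The family held a large part of the signal in this tissue. Above the floor, collagens made up 13.5% of the summed values in partial discectomy and 13.2% in sham. Within the collagen signal, with values not divided by length, the fibrillar class held 90.1% in partial discectomy and 85.1% in sham. The chains of collagen I alone held 76.1% and 68.2%. Without collagen I, the family's share of all signal was 3.23% in partial discectomy and 4.19% in sham, so the order of the groups turned.

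Single genes were compared in level per length. Median level rose with transcript length over all coding genes, from 3.48 above the floor over the shortest transcripts (median 912 bases) to 31.0 over the longest (median 7964 bases), so the values were taken as not yet divided by length. They were divided by the length of the coding transcript with the longest coding sequence in GENCODE M21. Per kilobase, Col1a1 stood at 5764 in partial discectomy and 4685 in sham, and Col1a2 at 3751 and 2876. Next came Col2a1 (623 and 451) and Col3a1 (510 and 811), then Col6a2 (241 and 347) and Col6a1 (228 and 311). Col12a1 (190 and 229) stood above Col6a3 (141 and 242) in partial discectomy and below it in sham. The order of Col2a1 and Col3a1 also differed between the groups, but the ratio of none of these genes was called.

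The start regions of 4 members are shown because these genes stand for the patterns described below: Col11a1 had a ratio above 1, Col3a1 and Col6a3 had ratios below 1, and the ratio of Col10a1 turned on 1 library. Each line gives the 100 bases before the transcript start, 5′ to 3′ on the strand of the gene, from RefSeq's promoter table for build GRCm38.p6. Capitals mark matches, on either strand, to the TATA motif (TATAA), to the CAAT motif (CCAAT) or to the GC motif (GGGCGG).
Col11a1 (chr3:114030440-114030539, + strand): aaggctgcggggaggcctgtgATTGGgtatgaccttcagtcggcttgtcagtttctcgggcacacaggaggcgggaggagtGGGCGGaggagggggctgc
Col3a1 (chr1:45311438-45311537, + strand): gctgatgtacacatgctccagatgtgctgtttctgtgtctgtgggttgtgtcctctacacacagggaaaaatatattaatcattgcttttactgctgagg
Col6a3 (chr1:90843972-90844071, - strand): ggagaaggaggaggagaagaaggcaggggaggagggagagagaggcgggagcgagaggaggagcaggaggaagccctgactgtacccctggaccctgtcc
Col10a1 (chr10:34389881-34389980, + strand): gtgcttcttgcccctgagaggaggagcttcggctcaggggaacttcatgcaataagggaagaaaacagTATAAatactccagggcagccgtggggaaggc

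In these stretches, Col10a1 had TATAA starting 32 bases before its start, a place where TATA boxes are known to lie. Col11a1 had the CAAT motif on the opposite strand and a GC motif, and Col3a1 and Col6a3 had none of the 3 motifs in these letters. In the longer stretch of 250 bases Col3a1 did have TATAA, while Col6a3 had none of the 3. The promoter table held 33 of the 41 members, with 36 start sites. Over 250 bases before the start, TATAA stood in 7 of these 36 (19.4%, against 22.8% of 32851 promoters of that length) and CCAAT in 12 (33.3%, against 33.8%). GGGCGG stood in 21 (58.3%, against 32.7%). Each motif was counted by itself, whether or not it overlapped another, and a match describes letters only.

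Collagen I, the main protein of bone and of fibrous tissue, had group means of 34180 in partial discectomy and 27783 in sham for Col1a1 (chr11:94936224-94953042) in the authors' deposited table. By the authors' deposited table its ratio was 1.23 (95% limits 0.134 to 11.3, adjusted p = 0.919). Col1a2 (chr6:4504814-4541544), which encodes the second chain of the same trimer, stood at 20060 and 15384, a ratio of 1.30 (0.229 to 7.42) in the authors' deposited table. Both chains were thus higher in partial discectomy by a similar factor, which lay far inside their limits. Per kilobase there was 1.54 times as much Col1a1 as Col1a2 in partial discectomy and 1.63 times as much in sham, and the known collagen I trimer holds 2 chains from Col1a1 and 1 from Col1a2.

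The ratios of both collagen I genes depended on the group to which a single library belongs. The highest library of Col1a1 was at 48271, and the authors' deposited table is compatible with its lying in either group. In the partial discectomy group it would hold 47.1% of that group's total above the floor, as all such shares are counted here, and the other 2 libraries would average 27135, a ratio of 0.977 to sham. In the sham group it would hold 57.9% of that total, and the ratio with the other 2 sham libraries would be 1.95. An even spread over 3 libraries gives each 33.3%, and the highest of a group always holds at least that. For Col1a2, whose highest library was at 26280, the same reading gives shares of 43.7% or 56.9% and ratios of 1.10 or 2.02. The direction for Col1a1 therefore depends on which group its highest library belongs to, which was not known here.

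**Figure D2:**
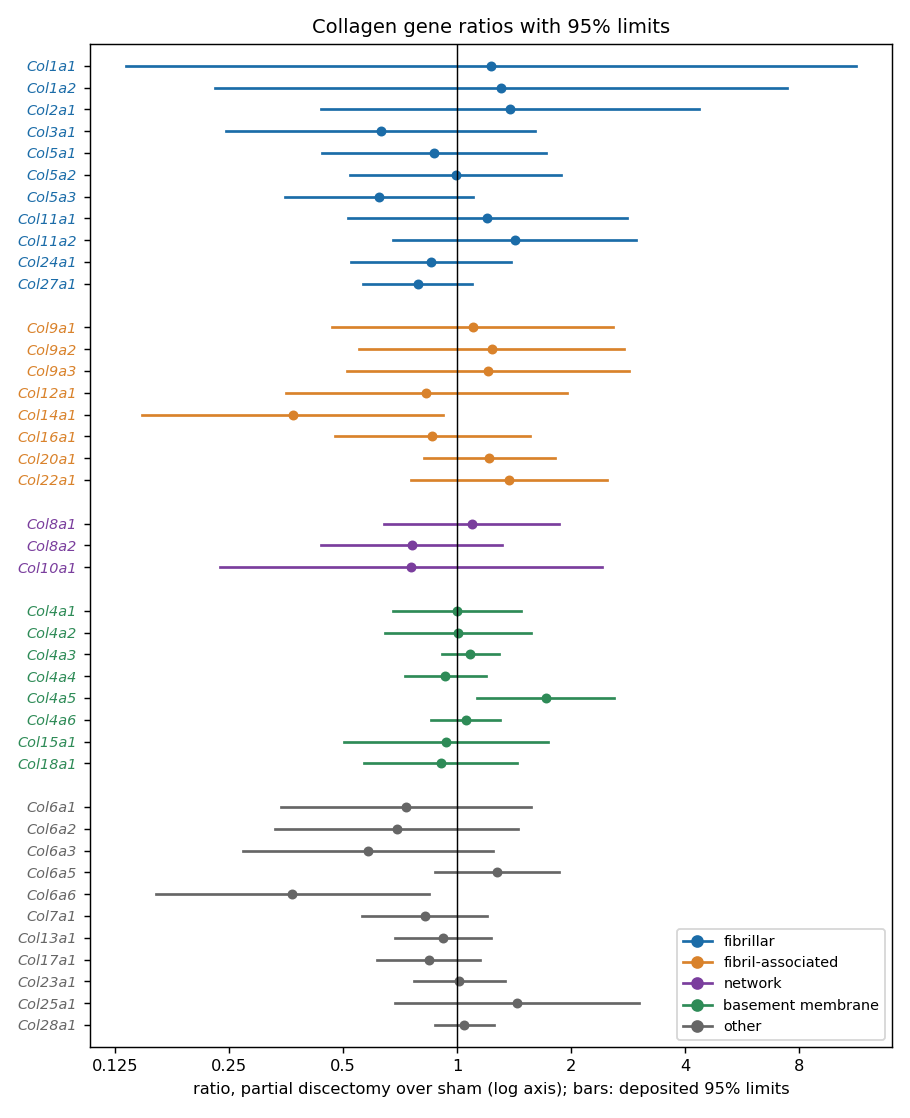
Ratio of the partial discectomy mean to the sham mean for each collagen (points) with the deposited 95% limits (bars), on a log axis and coloured by class. Only the bars of Col4a5 (above 1), Col14a1 and Col6a6 (both below 1) leave out equal means, and the bars of Col1a1 reach from 0.134 to 11.3.

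Of the 11 fibrillar chains 5 had a ratio above 1 and 6 below, beside 62.7% of all genes above 1, and none was called. The 5 above 1 were the chains of collagens I, II and XI. The 6 below 1 are described here as the rest of the class, so their shared direction follows from how they were set apart. Col3a1 (chr1:45311538-45349706), which encodes collagen III of fibrous and vascular tissue, stood at 2839 in partial discectomy and 4515 in sham in the authors' deposited table. The authors' deposited table gives a ratio of 0.629 (0.246 to 1.60, adjusted p = 0.668). Collagen V sits inside collagen I fibrils and limits their width. Its chains Col5a1, Col5a2 and Col5a3 had ratios of 0.870, 0.991 and 0.623, per the authors' deposited table. Col5a2 lies 24614 bases from Col3a1 on chromosome 1, and the log2 ratio of Col3a1 was lower than that of its neighbour by 0.66, with the floor removed. Col24a1 and Col27a1, fibrillar collagens made in bone and in cartilage respectively, had ratios of 0.854 and 0.787, per the authors' deposited table.

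The chains of the cartilage fibril, collagens II, IX and XI, all had ratios above 1, and none was called. Col2a1 (chr15:97975602-98004695), which encodes the main cartilage collagen, stood at 3181 in partial discectomy and 2305 in sham in the authors' deposited table, a ratio of 1.38 (0.437 to 4.36, adjusted p = 0.682). Collagen XI nucleates the cartilage fibril. Its chains Col11a1 and Col11a2 had ratios of 1.20 (0.515 to 2.81) and 1.42 (0.678 to 2.98), per the authors' deposited table. Collagen IX decorates that fibril, and its chains Col9a1, Col9a2 and Col9a3 had ratios of 1.10, 1.23 and 1.21. The summed level of these 6 genes was 4866 in partial discectomy and 3652 in sham, for a ratio of 1.33. The median log2 ratio of the 6 was 0.29, beside 0.08 over all genes.

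Other cartilage genes differed in direction between lists. Of 9 chondrocyte markers that are not collagens 8 had a ratio below 1, and 1 had one above 1 (Hapln1, which links aggrecan to hyaluronan, at 1.01). None was called, and the median log2 ratio was -0.17, beside 0.08 over all genes. Sox5, a cartilage transcription factor that acts on Col2a1, had a ratio of 0.561 (adjusted p = 0.186), by the authors' deposited table, and Sox9 had one of 0.865. Of 5 markers of hypertrophic and prehypertrophic chondrocytes 4 had a ratio above 1, and none was called. Alpl is in this list and also among the osteoblast markers, of which 8 of 9 had a ratio above 1. Mmp13 is also in the list of genes that cut collagen. These ratios therefore do not speak for chondrocytes alone. Among proteins that bind cartilage fibrils, Matn4 had a ratio of 1.22 and Matn3 one of 0.656. The weight of 1 library differed among the 6 cartilage fibril genes. The highest library of Col2a1 was at 4850, which is 50.8% of the partial discectomy total if it lies there, and 70.2% of the sham total if it lies in sham. Without it the ratio of Col2a1 would be 1.02 in the first case and 3.08 in the second. For the chains of collagen IX the first case gives ratios of 0.648 to 0.872, and for Col11a1 0.891. For Col11a2 the highest library would hold 41.1% of the partial discectomy total, and the ratio without it would be 1.26. The highest library could not be assigned to a group for any of the 6, so the direction of Col9a1, Col9a2, Col9a3 and Col11a1 is not known without it.

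Among fibril-associated collagens outside cartilage, Col14a1 and Col12a1 had ratios below 1. Col14a1 (chr15:55307750-55520803), a collagen of tendon and dense fibrous tissue, stood at 16.7 in partial discectomy and 45.4 in sham in the authors' deposited table, the lowest ratio of the 30 collagens with a mean of at least 5 above the floor. By the authors' deposited table this ratio was 0.368 (0.147 to 0.920, p = 0.111, adjusted p = 0.476). The deposited limits thus left out equal means while the deposited p was not under 0.05. Its highest library lay in the sham group at 92.7, holding 68.9% of the sham total, while the other 2 sham libraries averaged 21.7. Against those 2 the partial discectomy mean gave a ratio of 0.770, so most of the difference came with 1 sham library. Col12a1 (chr9:79598991-79718831), found on fibrils of tendon, ligament and bone surfaces, stood at 2186 and 2632, a ratio of 0.831 in the authors' deposited table. Its highest sham library was at 3949 and the other 2 averaged 1974, below the partial discectomy mean, so that the ratio without it was 1.11. Col16a1, Col20a1 and Col22a1 had ratios of 0.861, 1.22 and 1.37, the last a collagen of tissue junctions.

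Collagen X showed the strongest dependence on 1 library among collagens whose highest library could be assigned. Col10a1 (chr10:34389981-34397085), the classic product of hypertrophic chondrocytes, stood at 454 in partial discectomy and 599 in sham, for a ratio of 0.758 (0.238 to 2.42, adjusted p = 0.950), by the authors' deposited table. Its highest library, at 1286, lay in the sham group and held 71.7% of the sham total. The other 2 sham libraries averaged 255, and against them the ratio was 1.78. The 5 hypertrophic and prehypertrophic markers had ratios, per the authors' deposited table, of 1.74 for Mmp13, 1.23 for Alpl, 1.14 for Pth1r, 1.12 for Ihh and 0.914 for Panx3, and none was called. The remaining network collagen, collagen VIII of vessels and of other membranes, had ratios of 1.09 for Col8a1 and 0.759 for Col8a2.

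**Figure D3:**
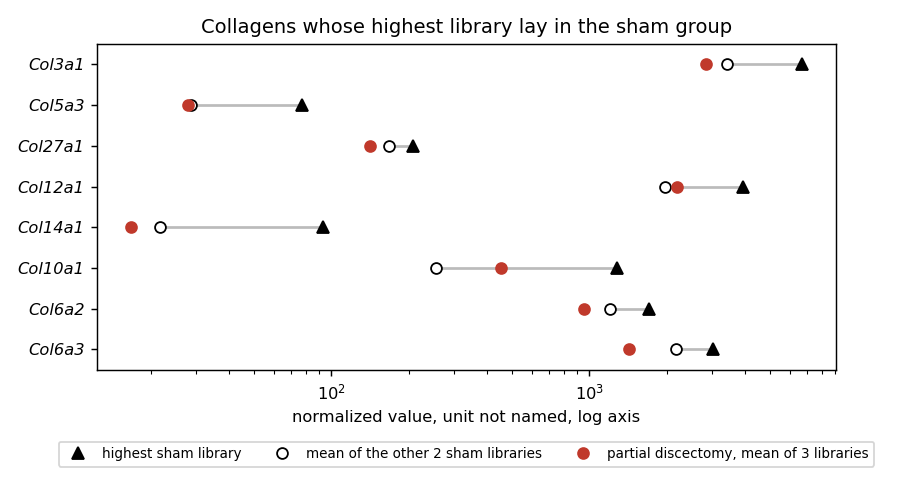
Highest sham library (triangles), mean of the other 2 sham libraries (open circles) and partial discectomy mean (red) on a log axis, for the 8 collagens with a mean of at least 5 above the floor whose highest library could be assigned. The red points of Col10a1 and Col12a1 lie above the open circles, and those of the other 6 genes lie below, that of Col5a3 by little (27.9 against 28.5).

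The highest library could be assigned to a group for 18 of the 41 collagens, and to the sham group for 12 of these. Among the 30 collagens with a mean of at least 5 above the floor it was in sham for 8 and in partial discectomy for 0, with 22 not assigned. Over all 10286 genes at that level it was in sham for 1511, in partial discectomy for 5191 and not assigned for 3584. The assignment used the group means that also give the ratios, and all 8 collagens assigned to sham had a ratio below 1. These counts are therefore not separate from the direction of the ratios. Whether the highest library was the same from gene to gene is not given. Leaving out the highest library always lowers the mean of its own group. Of the 8 collagens assigned to sham at that level, Col10a1 and Col12a1 changed direction without that library. Col3a1 then had a ratio of 0.829 and Col5a3 one of 0.978.

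The 3 abundant chains of collagen VI had ratios below 1, and that of Col6a3 was the lowest among the 19 collagens whose mean above the floor was at least 100. In the authors' deposited table Col6a1 (chr10:76708792-76726168), Col6a2 (chr10:76595762-76623630) and Col6a3 (chr1:90765923-90843971) had partial discectomy means of 935, 952 and 1426. The sham means were 1275, 1372 and 2444. Per the authors' deposited table their ratios were 0.734 (0.344 to 1.57), 0.694 (0.332 to 1.45) and 0.583 (0.273 to 1.25, adjusted p = 0.540). These chains assemble into 1 protein, and their summed level was 3311 in partial discectomy and 5088 in sham, for a ratio of 0.651. The highest library lay in sham for Col6a2 and Col6a3, and without it their ratios were 0.789 and 0.660. Of the low members of the type, Col6a5 had a ratio of 1.28 and Col6a6 one of 0.368 (0.161 to 0.842, p = 0.0507, adjusted p = 0.352), by the authors' deposited table. The sham mean of Col6a6 was 4.76, and 69.7% of the sham total came from 1 library at 8.86.

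Of fibrous tissue types, 9 chains (Col3a1, the 3 chains of collagen V, Col6a1, Col6a2, Col6a3, Col12a1 and Col14a1) had a ratio below 1. Col5a2 did so by little (0.991), and the median log2 ratio of the 9 was -0.53, beside 0.08 over all genes. This grouping was made with the ratios known and was not tested. It leaves out collagen I, also a collagen of fibrous tissue, whose chains had ratios above 1 (1.23 for Col1a1 and 1.30 for Col1a2). The summed level of the 9 chains was 10496 in partial discectomy and 14596 in sham, and that of the collagen I chains 54239 and 43165. Of 8 markers of tendon and fibrous cells that are not collagens 3 had a ratio above 1 and 5 below, and none was called. Among these Thbs4, the 1 marker lower at an unadjusted p under 0.05, and Postn had ratios of 0.368 and 0.554. The 3 above 1 were Fmod (1.36) and, at low levels, Scx (3.70 in partial discectomy and 2.92 in sham) and Tnmd (1.46 and 1.42). Skeletal muscle markers, which mark tissue attached to the condyle, had ratios below 1 for all 9, with summed levels of 216 in partial discectomy and 344 in sham. None of the 9 was called or had an unadjusted p under 0.05, and the highest library lay in sham for 8 of them. The part of attached tissue in the ratios of these collagens was not tested.

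The main basement membrane chains had ratios close to 1. Col4a1 (chr8:11198423-11312826) and Col4a2 (chr8:11312805-11449287), the chains of the general basement membrane, had ratios of 1.00 (0.680 to 1.48) and 1.01 (0.647 to 1.57), per the authors' deposited table. Their means were 180 and 179 for Col4a1, and 137 and 136 for Col4a2. The genes lie head to head and overlap by 22 bases, shown here because both transcripts start within this stretch, with a match to GGGCGG in capitals.
Col4a1 and Col4a2 (chr8:11312805-11312826, + strand): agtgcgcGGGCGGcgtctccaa

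Of 13 pairs of chains from cartilage fibrils or from 1 collagen type, Col4a1 and Col4a2 had the ratios closest to each other (1.00 and 1.01), and the median difference in log2 ratio, floor removed, was 0.20. The low type IV pairs also lie head to head. Col4a5 and Col4a6, whose starts are 1309 bases apart on chromosome X, differed by 0.96 in log2 ratio with the floor removed, and by 0.70 with it kept. Col4a3 and Col4a4, 72 bases apart, differed by 0.73 with the floor removed and by 0.22 with it kept. Means of these 4 genes lay between 1.25 and 3.83, where small differences above the floor make large ratios, and no difference between chains was tested.

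Col4a5 (chrX:141475385-141689234), a chain best known from kidney and other specialised basement membranes, was the 1 collagen with an unadjusted p under 0.05. It stood at 3.83 in partial discectomy and 2.24 in sham, for a ratio of 1.71 (lower limit 1.13, p = 0.0161, adjusted p = 0.211), by the authors' deposited table. Its highest library, at 4.69, lay in the partial discectomy group, and without it the ratio was 1.52. Endothelial markers, genes of cells that rest on basement membranes, had ratios above 1 for all 8, with summed levels of 242 in partial discectomy and 170 in sham, and none was called. Their part in the level of Col4a5 was not tested. Col15a1 and Col18a1, collagens of the basement membrane zone whose ends can be cut off as small inhibitors of vessel growth, had ratios of 0.935 and 0.906.

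The membrane-spanning and remaining collagens included the highest ratio among the 30 collagens with a mean of at least 5 above the floor. This was Col25a1, a membrane collagen, at 16.2 in partial discectomy and 11.2 in sham, for a ratio of 1.44 (0.686 to 3.03, adjusted p = 0.515), by the authors' deposited table. Its class mates Col13a1, Col17a1 and Col23a1 had ratios of 0.919, 0.842 and 1.02. Col7a1, which anchors skin to its basement membrane, and Col28a1 were close to the floor in both groups, with sham means of 2.06 and 1.31.

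The limits of the abundant collagens were wide. For Col1a1 the upper limit was 84.4 times the lower, for Col1a2 32.4 times, for Col10a1 10.2 times and for Col2a1 9.97 times. The median was 4.39 over the 19 collagens with a mean of at least 100 above the floor and 2.30 over all 631 genes at that level. At 1000 or more it was 5.05 for 10 collagens and 4.56 for all 40 genes, so width also went with level. Across libraries the geometric mean of Col1a1 was 28426, beside a mean of 30982. How the unnamed model set the width was not tested.

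**Figure D4:**
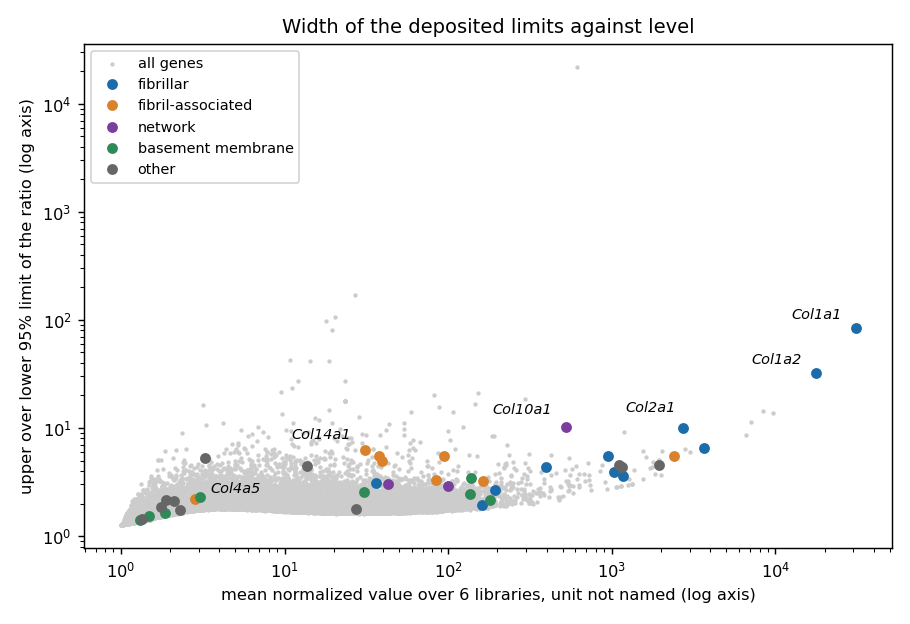
Upper over lower 95% limit of each gene's ratio against its mean over 6 libraries, both on log axes, for all genes (grey) and collagens by class (coloured). Col1a1 and Col1a2, at the right, have widths of 84.4 and 32.4, and the smallest widths seen rise with level among the most abundant genes.

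Genes that make, bind, cut, control or accompany collagen were called about as often as all genes. Of 83 such genes in 5 lists 2 were called (2.41%, beside 2.38% of all genes), and 10 had an unadjusted p under 0.05 (12.0%, beside 14.2%). Both called genes, Gp6 and Mmp8, are known products of blood cells. Of 34 genes for folding, modifying, trimming and crosslinking none was called, and 2 had an unadjusted p under 0.05, both with lower means, namely P4ha3, a subunit of the prolyl hydroxylase that stabilises the helix (0.476, adjusted p = 0.0898), and Tll1, a protease that trims procollagen ends (0.617, adjusted p = 0.333), per the authors' deposited table. Next by p were Tmem38b (1.38) and Loxl1 (0.670), and the list had 20 ratios above 1. Of 10 collagen receptors the platelet receptor Gp6 was called, at 2.91 in partial discectomy and 1.05 in sham, for a ratio of 2.78 (2.06 to 3.73, adjusted p = 0.00954), by the authors' deposited table. Lair1, an inhibitory receptor of immune cells, had a ratio of 1.42 and Itga11, the collagen-binding integrin chain of fibroblasts, 0.690, neither called, and Itga1 had 1.33.

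Of 12 genes that cut collagen or hold such enzymes in check, 1 was called. This was Mmp8, the collagenase of neutrophils, at 81.0 in partial discectomy and 4.85 in sham, for a ratio of 16.7 (7.71 to 36.3, adjusted p = 0.00954), by the authors' deposited table. The inhibitor Timp3 stood at 256 and 579, a ratio of 0.442. Mmp9 and Ctsk, both also listed as osteoclast markers, had ratios of 1.92 and 1.68. None of these 3 genes was called, and which cells the Mmp9 signal came from was not tested. Of 12 regulators of collagen genes none was called, and 1 was lower at an unadjusted p under 0.05, Sox5, with Scx, Creb3l1 and Trps1 next by p (1.27, 1.28 and 0.846). Of 15 proteins that bind collagen fibrils none was called either. At an unadjusted p under 0.05 there were 2 lower, Kera (0.345) and Tnxb (0.274, from 98.7 in sham to 27.0), and Dpt and Aspn followed at 0.600 and 0.665. The median log2 ratios of these 5 lists, in the order given, were 0.04, 0.14, 0.18, -0.15 and -0.04, beside 0.08 over all genes.

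The labelled tissue was checked against its markers, and blood cell genes moved with the surgery. All 9 osteoblast and all 4 osteocyte markers found had means well above the floor, among them Ibsp at 1992 and 1240 and Dmp1 at 544 and 300 (partial discectomy, then sham) in the authors' deposited table. None of these 13 was called, and 11 had a ratio above 1. Markers of other tissues were present too. A mean of at least 5 above the floor was reached by 8 of 9 chondrocyte and 7 of 9 skeletal muscle markers. Acan stood at 878 and 943, Hapln1 at 572 and 567 and Myh2 at 69.0 and 131. The bone markers therefore do not show that the samples held bone alone. Of 11 neutrophil markers 9 were called higher, of 10 erythroid markers 9 and of 8 megakaryocyte markers 7, where 2.28% of all genes were called higher. None was called lower. Summed levels of these lists were 1442, 261 and 41.9 in partial discectomy and 108, 18.6 and 3.99 in sham. The part of blood cell content in the collagen ratios was not tested. With the marker genes of these 3 lists taken out of the total, the collagen share was 13.6% in partial discectomy and 13.2% in sham. This could move the share little. The lists held 0.273%, 0.0494% and 0.00794% of the summed signal in partial discectomy, and 0.0224%, 0.00386% and 0.000829% in sham. All other transcripts of blood cells stayed in the total.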

How the data were processed

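RNA-seq of 6 libraries, 3 sham and 3 partial discectomy, was analysed from 1 table. STAR 2.6.1d and mm10 were used, per the submitters' processing notes. The counter, the normalization and the model are not named, that is, not given in the sources used here. In the deposited table the signal values are normalized group means with a smallest group mean of 1. The deposited ratio is the quotient of the group means, and the deposited log2 value its logarithm. The deposited p-value comes from an unnamed model, and its adjusted p equals the Benjamini-Hochberg adjustment over all genes. The authors' signed fold change and limits, held as a score like the totals and highest values, were turned into ratios. A second deposited file held no measurement. Planned tests on values per library could not be run on group means.

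Collagens were matched by symbol and grouped by class. All 41 positions matched GENCODE M21 (GRCm38, the assembly of mm10), once the stop was moved by 1 base. The highest library was assigned to a group only where the other group could not hold it, given the geometric mean. On simulated data for 23170 genes this assigned 14066 and placed 0 wrongly. That outcome is fixed in advance where group means are plain means of 3 libraries, so it checks the code only. Whether the deposited group means are plain means was not tested. In the real table no gene was left without a possible group. Members, lists and groupings were chosen with earlier results of these data known. Named were the chains of the main types, each collagen at an unadjusted p under 0.05, the extremes, and the called and up to 4 lowest-p genes per list, with further markers chosen after their values were seen. Python 3.11.15, numpy 2.4.6 and pandas 2.3.3 were used.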

Additional observations from a re-analysis of the deposited data

How the results depend on the processing

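No collagen was called with genes filtered at a mean above the floor of 1 or 5, with protein-coding genes only, or at an adjusted p under 0.1. By the deposited 95% limits 1 was higher and 2 were lower. The 1 collagen at an unadjusted p under 0.05 was left out by the filter at 5, which gave 0. Removing the floor turned no collagen's direction, and moved the median log2 ratio of the other collagens from -0.25 to -0.45. Relative to the summed group means (0.13) the median was -0.15 for all collagens, -0.15 for fibrillar, 0.073 for fibril-associated, -0.53 for network and -0.38 for other collagens. The median of basement membrane collagens turned from 0.0073 to -0.13, and to -0.073 relative to the median of all genes. Single genes that turned below 0 relative to the summed means were Col8a1 (-0.0035), Col4a1 (-0.13), Col4a2 (-0.12), Col4a3 (-0.015), Col4a6 (-0.057), Col23a1 (-0.11) and Col28a1 (-0.067). Relative to the median of all genes Col4a1 (-0.077), Col4a2 (-0.069), Col4a6 (-0.0046), Col23a1 (-0.059) and Col28a1 (-0.015) turned. Without the highest library, an alternative added after seeing the data, 7 of 18 turned: Col10a1 (0.83), Col12a1 (0.15), Col7a1 (0.066), Col4a4 (0.012), Col20a1 (-0.011), Col4a6 (-0.0064) and Col28a1 (-0.00045). The cause was not tested. The collagen share was 15.1% and 14.5% (partial discectomy, sham) of protein-coding signal, and 3.23% and 4.19% without collagen I, also added later. No paired analysis was possible because the table holds group means, and for the same reason no replicate could be left out in turn. Depth is unknown, so no detection limit is given.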
